A study of Mus musculus with 3 samples.

Results

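The genes described here are the small nucleolar RNAs (snoRNAs) and small Cajal body RNAs (scaRNAs) that were detected in the nuclear RNA of mouse macrophages. A gene was included when its annotated biotype was snoRNA or scaRNA and its level was at least 1 TPM, a level scaled for length, in all 3 libraries. The rule found 46 genes, 37 of biotype snoRNA and 9 of biotype scaRNA, of 1558 annotated genes with these biotypes (1507 snoRNA and 51 scaRNA), or 2.95%. TPM is a read count divided by the effective length of a gene, which is the number of positions at which a sequenced fragment fits in it, and scaled to a sum of 1000000 in each library. Because TPM chose the genes, their TPM values are given as a description, without a test.

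The 3 libraries were biological replicates of 1 group: bone marrow-derived macrophages from C57BL/6J mice. The cells had received 100 ng/ml lipid A, the membrane-anchoring part of bacterial lipopolysaccharide, for 12 h, then 12 h of washout, then 100 ng/ml lipid A again for 15 min. RNA of the nuclear fraction, which the description of the samples calls nucleoplasmic, was depleted of ribosomal RNA and sequenced as total RNA with fragments of 250 to 400 in the labelled size range, whose unit is not labelled. The labels carry 1 donor identifier for all libraries, age and sex were not collected, and no untreated cells and no other fraction are analysed here, so the levels stand without a control.

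Most snoRNAs are cut out of the introns of other genes and work as guides in nucleoli. Box C/D RNAs direct the methylation of ribose and box H/ACA RNAs the conversion of uridine to pseudouridine, mainly in ribosomal RNA, while a few, such as U3 and the Snora73 RNAs, serve in the cleavage of the ribosomal RNA precursor. ScaRNAs carry the same boxes, are held in Cajal bodies and guide the modification of the spliceosomal small nuclear RNAs.

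Sequences of the members on which the results turn are printed 5′ to 3′ from the reference transcripts of GENCODE release M21 on the mouse build mm10, in DNA letters. The first set holds the scaRNA with the most reads and the pair of scaRNAs in Atg16l1. In these and the other box C/D sequences the capitals mark every TGATGA (the C box letters) and the last CTGA (the D box letters) within the final 20 bases, searched on the transcript's own strand. Gm22009 lies at chr3:69085105-69085447 on the minus strand in an intron of Kpna4, and is shown by its first and last 60 bases, which hold these letters. Gm25395 and Scarna6 lie on the plus strand in introns of Atg16l1, at chr1:87776938-87777209 and chr1:87784556-87784820.
Gm22009 bases 1 to 60: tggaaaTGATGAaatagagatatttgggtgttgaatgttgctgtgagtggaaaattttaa
Gm22009 bases 284 to 343: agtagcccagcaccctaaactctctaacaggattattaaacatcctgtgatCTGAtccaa
Gm25395: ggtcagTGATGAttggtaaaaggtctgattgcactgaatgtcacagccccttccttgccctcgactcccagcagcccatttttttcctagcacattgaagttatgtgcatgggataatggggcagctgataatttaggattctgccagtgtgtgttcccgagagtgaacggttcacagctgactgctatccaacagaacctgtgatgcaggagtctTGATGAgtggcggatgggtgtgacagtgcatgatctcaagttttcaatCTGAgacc
Scarna6: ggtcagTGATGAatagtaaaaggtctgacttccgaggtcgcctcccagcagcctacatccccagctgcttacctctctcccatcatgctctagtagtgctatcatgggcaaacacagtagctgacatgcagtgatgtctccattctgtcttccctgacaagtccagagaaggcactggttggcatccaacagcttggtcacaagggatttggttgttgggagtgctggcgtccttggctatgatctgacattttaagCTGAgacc

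The H/ACA-like sequences follow, with capitals on the last ACA within the final 10 bases. Gm26447, the gene with the highest TPM, lies at chr16:23111301-23111429 on the plus strand in Eif4a2. The next 4 form a family of near-identical copies in different genes: Gm22988 at chr11:69669635-69669778 (minus, Eif4a1), Gm25291 at chr11:51737779-51737922 (minus, Sec24a), Gm25117 at chr10:111481493-111481636 (plus, Nap1l1) and Gm24727 at chr8:33691801-33691944 (plus, Gsr). Snora73a at chr4:132352775-132352979 and Snora73b at chr4:132352322-132352526, both on the minus strand, share the noncoding host Snhg3.
Gm26447: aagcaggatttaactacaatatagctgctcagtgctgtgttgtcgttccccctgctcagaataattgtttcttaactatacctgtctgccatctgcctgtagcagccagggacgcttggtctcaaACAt
Gm22988: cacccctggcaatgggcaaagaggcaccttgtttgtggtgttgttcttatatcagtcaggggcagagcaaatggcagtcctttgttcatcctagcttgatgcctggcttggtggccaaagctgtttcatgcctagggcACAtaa
Gm25291: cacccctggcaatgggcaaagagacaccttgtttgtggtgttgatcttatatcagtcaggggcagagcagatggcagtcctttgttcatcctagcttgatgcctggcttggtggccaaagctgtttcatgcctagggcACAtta
Gm25117: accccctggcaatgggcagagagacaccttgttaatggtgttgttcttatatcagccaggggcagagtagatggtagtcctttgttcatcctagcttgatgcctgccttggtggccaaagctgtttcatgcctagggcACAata
Gm24727: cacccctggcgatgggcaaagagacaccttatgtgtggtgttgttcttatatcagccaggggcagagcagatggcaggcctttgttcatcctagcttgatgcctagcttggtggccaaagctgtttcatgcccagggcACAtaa
Snora73a: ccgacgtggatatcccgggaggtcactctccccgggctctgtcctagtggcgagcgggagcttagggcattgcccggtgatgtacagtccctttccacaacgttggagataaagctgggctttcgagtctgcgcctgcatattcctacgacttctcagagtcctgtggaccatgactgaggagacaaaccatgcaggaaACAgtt
Snora73b: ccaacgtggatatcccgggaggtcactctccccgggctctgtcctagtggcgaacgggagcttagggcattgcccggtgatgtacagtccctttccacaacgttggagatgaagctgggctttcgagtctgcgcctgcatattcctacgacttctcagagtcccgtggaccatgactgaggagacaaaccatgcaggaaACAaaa

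The last set shows 3 box C/D members of different kinds beside Snord22, which is not a member, has no TGATGA and is taken up after the members at the threshold. Snord15a lies at chr7:99482785-99482932 (minus, an intron of Rps3), Gm22486 at chr6:71882557-71882693 (minus, Ptcd3), Rnu3b1, a copy of U3, at chr11:87443237-87443452 (plus, inside the span of Tex14) and Snord22 at chr19:8725866-8725991 (plus, Snhg1). Gm22486 has the same coordinates as the gene that RefSeq names Snord94, a guide for the U6 small nuclear RNA.
Snord15a: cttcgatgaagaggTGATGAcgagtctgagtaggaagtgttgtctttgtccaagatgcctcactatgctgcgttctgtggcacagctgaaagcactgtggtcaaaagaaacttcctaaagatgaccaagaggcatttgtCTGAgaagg
Gm22486: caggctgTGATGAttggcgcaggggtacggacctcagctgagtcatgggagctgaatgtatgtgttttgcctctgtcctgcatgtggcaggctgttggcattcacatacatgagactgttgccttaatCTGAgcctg
Rnu3b1: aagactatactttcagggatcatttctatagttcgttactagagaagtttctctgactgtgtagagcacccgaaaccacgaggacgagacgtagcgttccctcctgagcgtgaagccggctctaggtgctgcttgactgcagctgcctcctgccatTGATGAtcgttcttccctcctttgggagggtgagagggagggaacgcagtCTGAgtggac
Snord22: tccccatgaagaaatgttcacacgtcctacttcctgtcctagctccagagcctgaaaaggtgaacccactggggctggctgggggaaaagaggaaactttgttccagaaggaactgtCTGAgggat

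TGATGA together with CTGA in the final 20 bases was found in 16 of the 46 members (34.8%) and in 358 of all 1558 annotated genes (23.0%). ACA exactly 3 bases before the 3′ end was found in 20 members (43.5%) and in 301 annotated genes (19.3%). With ACA allowed anywhere in the final 10 bases, a window chosen after the data were seen, the counts were 26 members (56.5%) and 750 annotated genes (48.1%). The 1558 annotated genes include 817 that are shorter than every member and could not meet the rule. Shares among annotated genes of the members' lengths were not computed, so these differences cannot be separated from length. The loose H box pattern ANANNA occurred in all 46 members and in 91.8% of the annotated genes, so it separated nothing. Gm23547 carried both the C and D letters and a terminal ACA, and 5 members carried neither set.

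Markers were checked for the labelled cell type. All 10 macrophage markers, among them Adgre1, Csf1r, Lyz2 and Cd68, were at TPM 1 or more in all libraries, with a summed TPM of 5034 to 6544. None of the 6 granulocyte, 4 dendritic cell, 4 T and NK cell, 4 B cell, 4 fibroblast, 3 mast cell and basophil or 4 erythroid markers was detected, and the highest summed TPM of any of these lists in any library was 3.77. The 3 neuronal markers were listed at 0. The 17 annotated Snord116 genes, a C/D cluster known from brain, were also at TPM 0, but at 94 bases all 17 had an effective length of 0 in every library, so this TPM says nothing about the cell type. Expected counts over annotated genes, the read counts after sharing out reads that fit several genes, totalled 23826101, 19312032 and 21730342 in replicates 1, 2 and 3. RNA input was 1 µg, 500 ng and 1 µg. Mitochondrial mRNA took 4.25%, 4.98% and 2.31% of counts.

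Detection followed length. The members measured 129 to 414 bases, with a median of 148, whereas the median of all annotated snoRNA and scaRNA genes was 128. No gene shorter than 129 bases was a member. All 817 shorter genes had an effective length of 0 in at least 1 library and so could not reach a TPM above 0 there. Members were 24 of 676 genes at 129 to 149 bases, 5 of 26 at 150 to 199, 14 of 34 at 200 to 299 and 3 of 5 at 300 to 414.

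**Figure D1:**
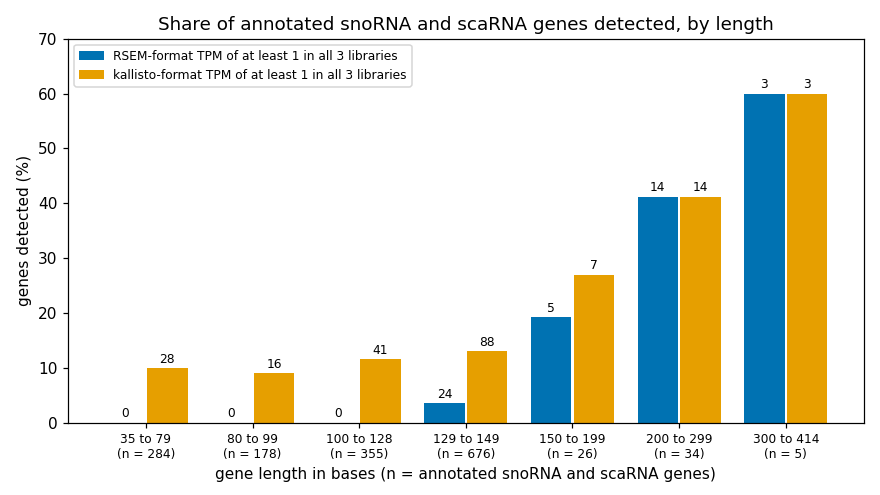
Percentage of annotated snoRNA and scaRNA genes in each length class (x axis, bases) with TPM of at least 1 in all 3 libraries in the RSEM-format tables (blue) and in the kallisto-format tables (orange); numbers above the bars are genes. The blue bars are at 0 below 129 bases, while the orange bars count 28, 16 and 41 genes there, and both tables count 14 and 3 genes in the longest classes.

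A second set of deposited tables, in kallisto format, put 197 snoRNA and scaRNA genes at TPM 1 or more throughout. These held 42 of the 46 members and 155 other genes, and 85 of the 197 were shorter than 129 bases. The 4 members not among them were Gm23245, Gm25791, Snora81 and Rnu3a. Rnu3a has a second identifier at its locus, which was among the 155 other genes. The TPM values given next rest on short effective lengths. Among members the median was 3.73, 3.41 and 7.68 bases in replicates 1, 2 and 3, with a lowest value of 1.12, 1.02 and 2.45, and 24 members averaged under 10 bases. For such genes 1 read is worth many TPM.

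At the threshold itself there was a gap. The members with the lowest minimum were Snora23 (TPM 13.8, 2.94 and 25.9 in replicates 1 to 3), Snora81 (20.4, 8.03 and 12.3) and Snora57 (29.3, 11.3 and 12.3). Just outside stood Gm23946, in Timm23, with TPM 2.85, 4.19 and 0.93. Every other annotated gene outside the threshold was listed at 0 in at least 1 library. Replicate 2 set much of the boundary: 26 genes reached TPM 1 in replicates 1 and 3 and were listed at 0 in replicate 2, against 3 missing only replicate 3 and 5 missing only replicate 1. Among them were Snora68 (575, 0 and 332) and Snora78 (266, 0 and 444).

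Snord22, a C/D RNA in an intron of Snhg1, shows the length limit most sharply. Its 126 bases gave an effective length of 0 in replicates 1 and 2 and 1.91 in replicate 3. Its TPM was accordingly listed as 0, 0 and 13663, although its expected counts were 201, 31.9 and 832. On the kallisto-format scale it was present in every library, at TPM 112, 47.1 and 161.

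Among the scaRNAs, Gm22009 took most of the reads of the whole class. Its expected counts were 19801, 24516 and 31034, which was 54.3%, 75.5% and 56.5% of all counts of the 46 members. Its TPM was 4318, 7421 and 6028 (5922 ± 1555, SD, n = 3), highest in replicate 2, where most other members were lowest. It was also first by kallisto-format TPM, at 971, 2674 and 574.

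Scarna2 and Scarna10 came next by counts. Scarna2, a guide for the U2 small nuclear RNA, had no same-strand host, expected counts of 4425, 2918 and 5900 and TPM of 628, 575 and 801 (668 ± 118, SD, n = 3). Scarna10, annotated as a snoRNA in spite of its name, lies in Ncapd2, with 281 of its 325 bases within a same-strand exon. It had counts of 4877, 2148 and 4819 and TPM of 1222, 748 and 1049 (1006 ± 240, SD, n = 3). With Gm22009 these genes held 79.8%, 91.0% and 76.0% of the members' counts.

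The 2 scaRNAs of Atg16l1, a gene of autophagy, were both lowest in replicate 2. Gm25395 had TPM 404, 228 and 437 (356 ± 112, SD, n = 3) and Scarna6 had 209, 119 and 209 (179 ± 52.1, SD, n = 3). The H/ACA scaRNA Scarna13, in the noncoding gene Snhg10, had TPM 277, 270 and 404. It was lower than Gm25395 in replicates 1 and 3 and higher in replicate 2.

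The other 4 scaRNAs were low and rested on few reads. Gm26083, which lies whole within an exon of the noncoding RNA Snhg20, had TPM 84.4, 38.9 and 94.9 from expected counts of 54.0, 16.8 and 94.3. Gm23119 (10, 2 and 15 expected counts) and Scarna3a (1, 1 and 8) were at or near single reads in replicate 2. Gm22442, in Chd3, had expected counts of 6, 2 and 32 but kallisto-format estimated counts of 396, 271 and 496. Its TPM was 54.2, 27.95 and 159 and its kallisto-format TPM 125, 152 and 59.3, with the libraries in the opposite order.

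Among the box C/D snoRNAs, the pair in the ribosomal protein gene Rps3 had the 2 highest mean TPM values of single genes with a C/D name in GENCODE. By mean expected count the order was another, with Snord17 at 203 and each Rnu3b copy at 140 before Snord15a at 124 and Snord15b at 81.3. Snord15a had TPM 784, 600 and 867 (750 ± 137, SD, n = 3), while Snord15b had 664, 155 and 730 (516 ± 315, SD, n = 3). Snord15a was the higher of the pair in all 3 libraries, and Snord15b had 11.7 expected counts in replicate 2. The pair is not measured alike, because Snord15b lies whole within an exon of a retained-intron isoform and Snord15a overlaps no same-strand exon. Gm22486, which has a C/D name only in RefSeq, had TPM 685, 255 and 1104 (682 ± 425, SD, n = 3) from 50, 12 and 150 counts. Its mean was above that of Snord15b.

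U3, an abundant C/D RNA, is part of the particle that cuts the precursor of 18S ribosomal RNA. Rnu3b1, Rnu3b2, Rnu3b3 and Rnu3b4 are identical over their 216 bases, so reads cannot be told apart between them, and each was given the same TPM of 125, 48.7 and 167. Rnu3a, 85.8% identical to them, had TPM 126, 54.5 and 122. Each of the 5 loci carries a further gene identifier that differs by 1 base at its end and is not a member. In the kallisto-format tables the member Rnu3a was listed at 0 and its twin identifier at TPM 41.8, 36.7 and 27.0. Summed over all 10 identifiers, which removes the division between twins, U3 had TPM 625, 436 and 1000.2, expected counts of 644, 309 and 1501 and kallisto-format estimated counts of 1333, 759 and 2503. These summed counts were above those of Snord15a and Snord17 in every library, while the summed TPM was above that of Snord15a only in replicate 3. Snord17, in an intron of Snx5, had TPM 155, 57.5 and 151 from expected counts of 234, 61 and 313. Snord118 and Snord13, other C/D RNAs of ribosomal RNA maturation, were not members. Snord118, at 135 bases, was listed at TPM 0, 0 and 16.7 and Snord13, at 104 bases, at 0 in every library. By kallisto-format TPM both were present throughout, Snord118 at 15.7, 19.7 and 2.37 and Snord13 at 10.8, 9.54 and 2.18. Of the known snoRNAs looked up by name, 16 were shorter than 129 bases. Of these, 15, of 70 to 104 bases and among them Snord104, Snord87 and Snord32a, were listed at TPM 0 in every library, and the other was Snord22. By kallisto-format TPM, 6 of the 16 reached 1 in every library.

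Among the genes without C/D letters the highest values belonged to members of 129 to 168 bases with an effective length of 16.4 bases or less. Gm26447 had TPM 10122, 3150.0 and 11761 (8344 ± 4573, SD, n = 3), the highest mean of all members, from expected counts of only 414, 82.9 and 917. It lies whole within an exon of a retained-intron isoform of Eif4a2, a translation initiation factor gene. Its rank among members was 1 by TPM, 9 by expected count and 5 by kallisto-format TPM. Gm23262, in Eif4g2, which ends in neither set of letters, had TPM 2595, 999 and 2509, and Gm25776, in Gtf2a1, had 1824, 502 and 2519. Gm26397, in Tomm20, had TPM 1124, 365 and 1339 from 67, 14 and 150 counts.

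Gm22988 stood apart from those in being highest by TPM in replicate 2, at 3481, 5838 and 4683 (4667 ± 1179, SD, n = 3). Its expected counts were highest in replicate 3, at 385, 418 and 942, over effective lengths of 3.03, 2.76 and 6.31 bases. Of its family, printed above, Gm25291 is 97.2% identical to it, Gm24727 93.8% and Gm25117 91.1%. Gm25291 and Gm24727 were also highest by TPM in replicate 2, with 108, 252 and 124 and with 54.2, 83.9 and 74.6. Gm25117 was lowest there (163, 97.8 and 239). By expected counts, 12, 18 and 25 for Gm25291 and 6, 6 and 15 for Gm24727, replicate 3 was highest. These copies share most of their sequence, so the division of reads between them is uncertain. Gm22988 and Gm25835 share the host Eif4a1 as well as a length of 144 bases. Gm22988 lies whole within an exon of a retained-intron isoform, while Gm25835 overlaps no same-strand exon. Gm25835, which carries C/D letters, had TPM 370, 41.9 and 636, the largest SD of log2(TPM + 1) of all members at 2.06, and only 3 counts in replicate 2.

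Snora73a and Snora73b, 96.6% identical, had closely similar values. The division of reads between them is uncertain, so their values are not independent. Snora73a also overlaps a same-strand exon by 159 bases, while Snora73b overlaps none. Snora73a had TPM 510, 141 and 641 (431 ± 259, SD, n = 3) and Snora73b had 537, 104 and 691 (444 ± 305, SD, n = 3). Gm26448, an 88.4% identical relative of Snora73a in the ribosomal protein gene Rpsa, had 144, 58.3 and 209, lower than both in each library. Snora74a had TPM 415, 182 and 438. The 3 members with the lowest mean TPM were all named H/ACA RNAs, Snora57, Snora23 and Snora81.

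**Figure D2:**
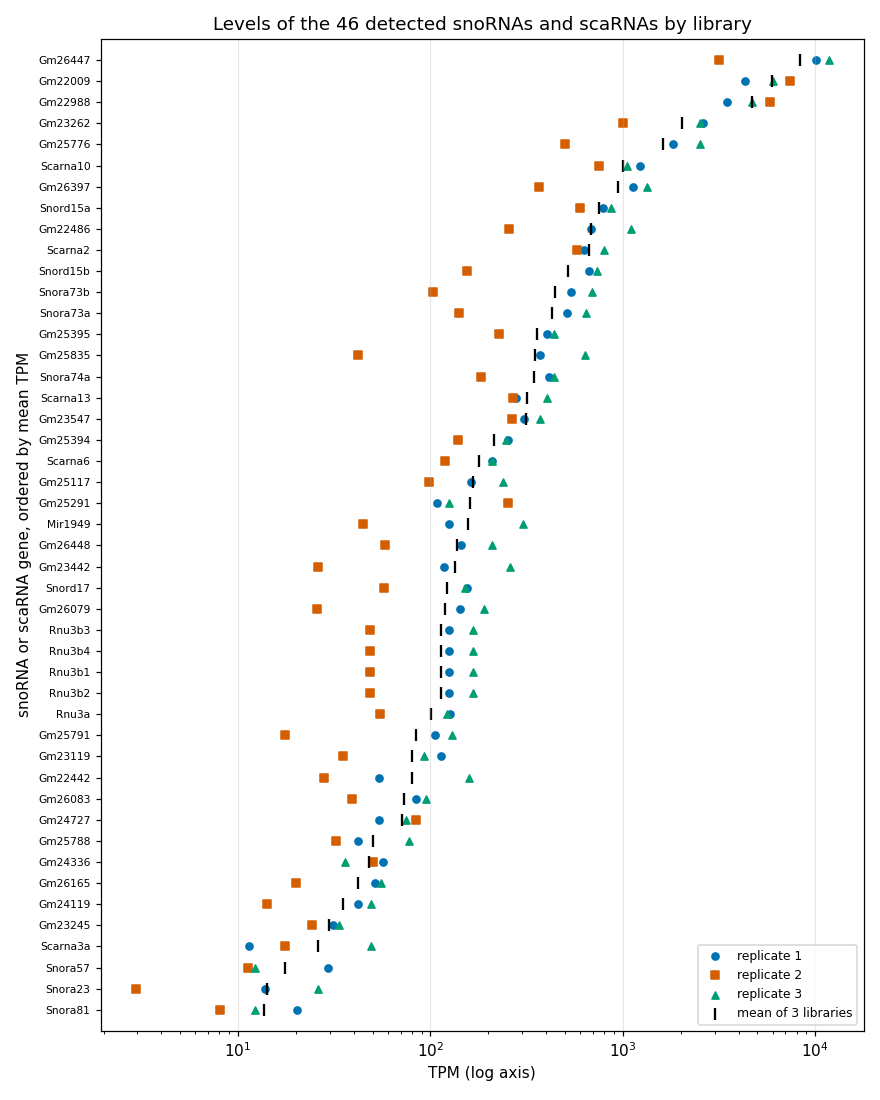
TPM (x axis, log scale) of each of the 46 genes in the 3 libraries (circles, replicate 1; squares, replicate 2; triangles, replicate 3) with the mean as a black tick, genes ordered by mean. Replicate 2 is the lowest library for 40 genes; Gm22009, Gm22988, Gm25291 and Gm24727 are the 4 genes highest in it.

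By name, 8 members are C/D, 6 are H/ACA, 10 are Cajal body RNAs and 22 carry no class name. The median of log2(TPM + 1) for H/ACA names minus that for C/D names was -0.17, -0.55 and -0.63 in replicates 1, 2 and 3, or -0.45 ± 0.24 (SD, n = 3). The direction was the opposite, 1.80, over members with 10 or more expected counts in every library, so no order of the classes can be read from it. Classes taken from the printed letters in place of names gave -1.26 ± 0.22 (SD, n = 3), a definition chosen after the data were seen.

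Most members lay in other genes. A same-strand gene spanned 42 of the 46, or 91.3%, against 44.7% of all annotated snoRNA and scaRNA genes, and these 42 lay in 32 different hosts. The annotated genes include those too short to be members, and the share at matched length was not computed. The hosts had a median TPM of 17.6, and 31 of the 32 were detected. Other genes that hold a snoRNA or scaRNA of 129 bases or more, 158 in number, had a median TPM of 4.56, and 101 of them were detected. The members were chosen by level and can share reads with an exon that covers them. Of the 46, 8 lay whole within such an exon, 6 of these in a retained-intron isoform. A further 6 lay partly within one and 32 overlapped none. Reads of unspliced host RNA were not separated from those of the mature member in any of these groups.

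Members and hosts shared no order of levels. Across the 42 pairs of member and host, Spearman's rho between mean TPM values was -0.0095, as a description over genes that share libraries and, in part, hosts. Within Eif4a2, at TPM 119 ± 20.8 (SD, n = 3), lay both the highest member, Gm26447, and the lowest, Snora81 (13.6 ± 6.26, SD, n = 3). Scarna13 was higher than its host Snhg10 (1.44 ± 0.388, SD, n = 3), and Scarna10 than Ncapd2 (2.97 ± 0.847, SD, n = 3). The span that holds the Rnu3b copies belongs to Tex14, at TPM 0.120.

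Of a list of 20 known host genes, all 20 were detected, but only 5 held a member: Snhg3, Rpsa, Eif4a1, Eif4a2 and Cwf19l1. Together they span 62 annotated snoRNA and scaRNA genes, of which 8 were members and 13 reached 1 in every library by kallisto-format TPM. Gas5, a noncoding RNA that is known as a C/D host, was at TPM 83.8, 61.0 and 54.0, and none of its 10 C/D genes of 60 to 84 bases was a member. Rpl13a, at 82.6, 80.5 and 70.8, likewise had none among 4 genes of 70 to 90 bases. Genes of these lengths had an effective length of 0 in at least 1 library, so they could not be members whatever their level. By kallisto-format TPM, 2 of the Rpl13a genes and 0 of the Gas5 genes reached 1 in every library.

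Transcripts for the protein partners of these RNAs were mostly detected. All 4 core C/D protein genes were detected, led by Nop56 (TPM 20.3 ± 3.35, SD, n = 3), with the methyltransferase fibrillarin, Fbl, at 6.71 ± 1.74. Of the 4 H/ACA protein genes, 3 were detected, among them the pseudouridine synthase Dkc1 (3.52 ± 1.08, SD, n = 3), and Nop10 missed the threshold only in replicate 3 (1.85, 1.78 and 0.92). All 3 Cajal body genes, Coil, Wrap53 and Smn1, all 6 U3 particle genes, 10 of 11 assembly factors and 10 of 10 genes of 3′ processing and decay were detected. Their median TPM lay between 1.85 for the Cajal body genes and 8.55 for the C/D proteins, beside 8.63 for all 9434 detected protein-coding genes. Telomerase RNA, Terc, which ends in an H/ACA domain, had TPM 9.77, 4.15 and 13.9. Rmrp, the RNA of the RNase MRP enzyme, which also acts on the ribosomal RNA precursor, had TPM 65077, 49949 and 61649, above every member in each library.

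The libraries differed in the members as a class, and the direction depended on the scale. By expected counts scaled to the library total (CPM), replicate 3 was highest for 45 of the 46 members and replicate 2 lowest for 41. By TPM, replicate 3 was highest for 32 and replicate 2 lowest for 40. In log2(TPM + 1), the median of replicate 2 minus the mean of replicates 1 and 3 was -1.37 for the members and 0.18 over all detected genes. By kallisto-format TPM the order was turned, with replicate 3 lowest for 35 and replicate 2 highest for 27. On kallisto-format estimated counts it was not turned. Of 38 members compared there, each library against the other 2, 37 were lower in replicate 2 and 37 higher in replicate 3. The median log2 fold changes were -1.40 and 1.30, against 0.0033 and -0.037 over all genes compared. The shares of all genes that were highest or lowest in each library were not computed on any scale. Whether the turned order by kallisto-format TPM is particular to the members was therefore not tested. The members' share of all TPM was 3.31%, 2.33% and 4.06% in the first tables and 0.320%, 0.510% and 0.197% in the kallisto-format tables. The median SD of log2(TPM + 1) over the libraries was 0.80 for the members and 0.21 over all 11261 detected genes. It was also 0.21 for the 4155 other detected genes with a mean at or above the lowest member's. These other genes were chosen by level alone, without regard to read count or length. The members' median expected count was 74.3, 17.5 and 152 in replicates 1, 2 and 3. The part of counting error in the members' SD was not tested. After Gm25835, the most variable members were Gm23442 (SD 1.66), Gm25791 (1.55), Gm26079 (1.53) and Snora73b (1.48), of which the first 3 had about 1 expected count in replicate 2. The smallest SDs were those of Gm23245 (0.23), Gm23547 (0.24) and Scarna2 (0.25). Gm23245 rested on only 2, 1 and 4 expected counts, while Gm23547, in Phb2, had TPM 305, 265 and 370 from 715, 444 and 1105 counts.

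**Figure D3:**
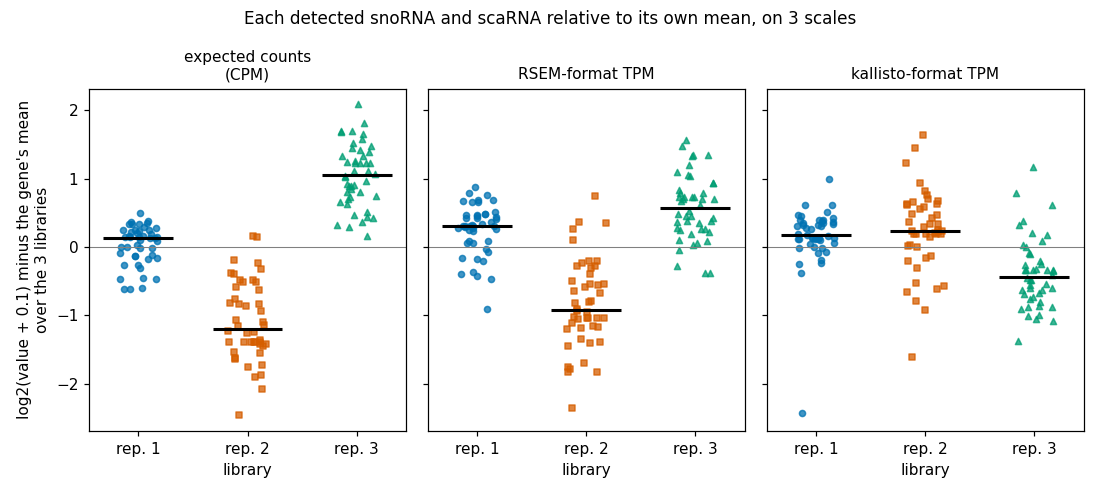
Level of each of the 46 genes in each library relative to its own mean over the 3 libraries (y axis, log2 of value + 0.1), on CPM of expected counts, RSEM-format TPM and kallisto-format TPM; black bars are medians. Replicate 2 has the lowest median on the first 2 scales (-1.19 and -0.92) and replicate 3 on the third (-0.43).

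Each library was then compared with the other 2 by edgeR's quasi-likelihood test on expected counts, fitted on all 14350 genes that passed the filter on low counts. Of the members, 28 passed that filter, with the remaining 18 having a mean of at most 57.3 counts. The rule for members did not use these contrasts, which share their libraries with each other. It did use TPM, which is computed from the same expected counts, so the members were not chosen independently of the values tested. It left out the 26 genes that reached TPM 1 in replicates 1 and 3 and were listed at 0 in replicate 2. For U3 the tested counts leave out reads given to the twin identifiers, which are not members. Each Rnu3b copy had 130, 35.1 and 254 counts, and 130, 68 and 291 with its twin. Rnu3a had 124, 37 and 177, and 124, 37 and 337 with its twin. The twins were not joined for the tests, also where the Rnu3b copies are counted once. The p-values measure only the spread between libraries that the labels call biological replicates of 1 donor identifier.

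In replicate 2, Snora73b had 59.4 expected counts against 450.0 and 869, Gm25776 had 34 against 191 and 481, and Gm26447 had 82.9 against 414 and 917. For these genes replicate 2 lay below both other libraries. The log2 fold changes were -3.34 (SE 0.591), -3.17 (SE 0.769) and -2.87 (SE 0.644), each with an adjusted p of 0.773 by edgeR's quasi-likelihood test with Benjamini-Hochberg adjustment. Without replicate 3, against replicate 1 alone and with no test, the log2(CPM + 1) differences were -2.29, -1.71 and -1.80. Of the 28 tested members 26 had a negative fold change, with a median of -2.12 against -0.01 over all genes tested. None passed an adjusted p of 0.05 in edgeR, where 0% of all genes were called lower. At an unadjusted p under 0.05, edgeR had 21 of the 28 members lower and 0 higher, beside 3.73% of all genes lower and 2.38% higher. With the identical Rnu3b copies counted once these were 18 of 25. DESeq2 called 5 members lower (Snora73b, Snora73a, Gm26447, Gm23262 and Gm25776), beside 0.0849% of all genes, while edgeR without the filter called 25 of 46 lower, beside 1.07%. Gm22009, at a log2 fold change of 0.09 (SE 0.450), and Gm25291, at 0.11 (SE 0.610), were the members with no negative value.

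In replicate 3 all 28 tested members had a positive log2 fold change, from 0.53 for Gm22009 to 2.39 for Gm22486, with a median of 1.51 against -0.02 over all genes tested. Gm22486 had 150 expected counts there against 50 and 12, and Scarna13 had 1253 against 682 and 474. Scarna13, with a log2 fold change of 1.20 (SE 0.243), had the lowest adjusted p of the members, 0.526 in edgeR's quasi-likelihood test. None was called by edgeR, beside 0% of all genes called higher, and none by DESeq2, beside 0.202%. At an unadjusted p under 0.05, edgeR had 23 members higher, beside 2.36% of all genes, or 20 of 25 with the Rnu3b copies counted once. Without the filter on low counts edgeR called 21 of 46 higher, beside 0.411%. In replicate 1 the median log2 fold change was -0.35. None was called by edgeR (beside 0.0627% of all genes lower and 0.139% higher) or DESeq2, and 1 had an unadjusted p under 0.05 in edgeR, Gm22988, beside 2.65% of all genes lower. DESeq2 called 0.331% of all genes higher and 0.25% lower in replicate 1.

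Other values also differed between the libraries, though not in step with the members throughout. The median gap between length and effective length of long genes, which follows the mean fragment length, was 223, 219 and 184 bases in replicates 1, 2 and 3, and was lowest in replicate 3. The 132 tested genes of other biotypes within the members' length range had a median log2 fold change of -0.33 in replicate 1 (98 lower, 34 higher), -0.55 in replicate 2 (90 lower, 42 higher) and 0.60 in replicate 3 (100 higher, 32 lower). The members' medians were -0.35, -2.12 and 1.51. Replicate 2 had the smaller RNA input. The part of fragment length in the members' differences was not tested, and input and library cannot be told apart. In bulk RNA, fewer cells that hold an RNA and less of it per cell cannot be told apart either.

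**Figure D4:**
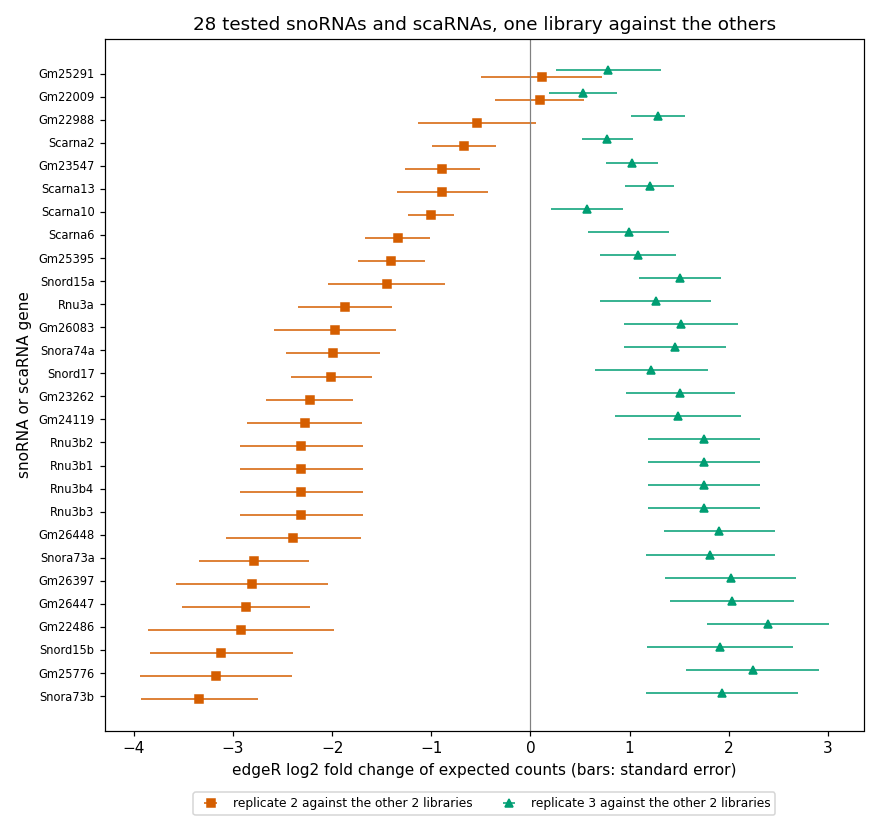
edgeR log2 fold change of expected counts (x axis; bars, standard error) of the 28 tested genes in replicate 2 (squares) and in replicate 3 (triangles), each against the other 2 libraries. Replicate 2 has values from -3.34 to 0.11 and replicate 3 from 0.53 to 2.39, and no gene passed an adjusted p of 0.05 in edgeR.

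The RSEM-format and kallisto-format tables differed in their values for the members. The 3 genes with the most reads, Gm22009, Scarna2 and Scarna10, were also among the first 4 by kallisto-format TPM. Rnu3a, with a mean of 113 expected counts, was listed at 0 there. Its twin identifier at the same locus held 334, 166 and 575 kallisto-format estimated counts, so the RNA itself was present in both tables. Kallisto-format estimated counts were a median 1.52 times the expected counts and were below them for 2 members, Snora81 and Rnu3a. They exceeded them by more than 10 times for 5 members. Spearman's rho over the 46 members was 0.71 between the TPM of both tables, 0.78 between TPM and expected count, and 0.76 between expected count and kallisto-format TPM, as a description. The largest differences in rank belonged to Gm24336 and Gm22442, ranked 39 and 35 by TPM but 8 and 7 by kallisto-format TPM. Gm24336, in Cwf19l1, had 7, 4 and 8 expected counts and 316, 205 and 554 kallisto-format estimated counts. Gm22486, Snord15b and Mir1949 moved the other way, from rank 9 to 30, 11 to 28 and 23 to 40. Mir1949 is named as a microRNA and annotated as a snoRNA, and is 1 of 7 members whose span overlaps a microRNA gene on the same strand.

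**Figure D5:**
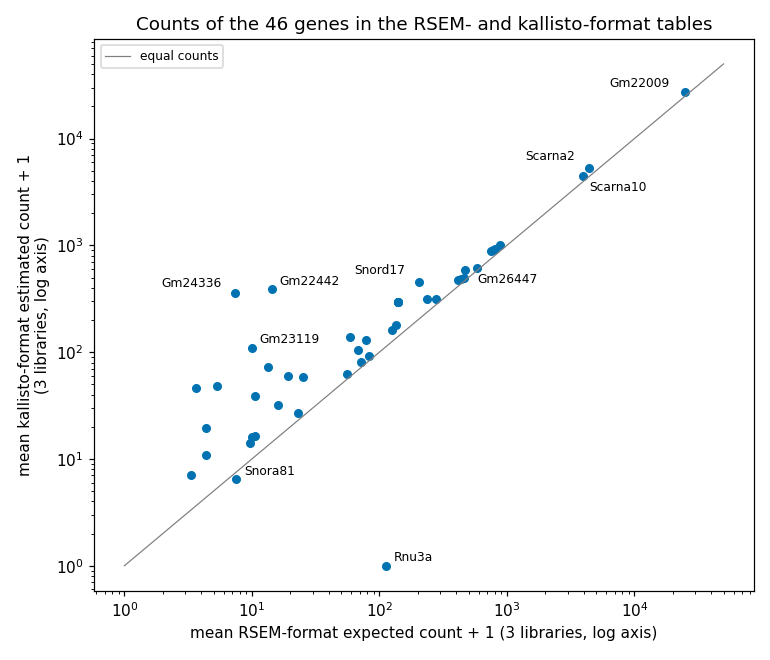
Mean RSEM-format expected count (x axis) and mean kallisto-format estimated count (y axis) of each of the 46 genes over the 3 libraries, both plus 1 on log axes, with the line of equal counts. Gm22009, Scarna2 and Scarna10 lie near the line, Gm24336 and Gm22442 far above it, and Rnu3a at a kallisto-format count of 0. The twin identifier that holds the kallisto-format counts of the Rnu3a locus is not a member and is not shown.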

How the data were processed

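Total RNA-seq libraries of the nuclear fraction of 3 biological replicates were used. The deposited gene tables give expected counts, TPM and FPKM in the columns that RSEM writes, and the deposited transcript tables give estimated counts and TPM in the columns that kallisto writes. The sources used here name neither the tools nor their versions. The build is mm10, per the labels, and all gene identifiers of the members were found in GENCODE release M21. Kallisto-format values were summed per gene.

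The members and all lists were chosen with earlier results of these data known. Genes named in the text are the members with the 12 highest and 3 lowest mean TPM, all scaRNAs, those next to the threshold, those with the 5 largest and 3 smallest SD of log2(TPM + 1), the 5 largest rank differences between tables, the 5 highest expected counts, up to 10 called in a library test, and a list of known snoRNAs; relatives and host partners of these were added after their values were seen. A host is the same-strand gene, other than a small RNA, that holds the member whole, and where several do, the one with the highest TPM.

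Expected counts were rounded and each library was tested against the others with edgeR 4.0.16 (TMM, filterByExpr, quasi-likelihood test, Benjamini-Hochberg adjustment over all genes tested), with DESeq2 1.42.0 as an alternative, in R 4.3.3. On simulated data for replicate 1 against the others over 14350 genes, with 50 genes changed at each fold, edgeR recovered 12 at 2-fold, 43 at 4-fold, 43 at 8-fold and 39 at 16-fold, with 8 false calls. The changed genes had a mean of at least 50 counts, and counts were drawn with the spread typical of their level. Recovery for rarer or more variable genes, and in the other contrasts, was not simulated. Depth was 19312032 to 23826101 expected counts per library. Sequences were compared by edit distance over whole transcripts, and pairs of at least 80% identity were kept.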

Additional observations from a re-analysis of the deposited data

Results flagged for a closer look

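The kallisto-format tables hold signal for snoRNA and scaRNA genes that the TPM rule leaves out. There, 143 genes listed at TPM 0 in every RSEM-format library had more than 3 estimated counts in each library, where 3 is the limit that a count of 0 allows for counting error only. Of these, 80 were shorter than 129 bases. The highest was Gm24339, a C/D-lettered gene of 76 bases in Cep295, with 286, 251 and 536 estimated counts, so that its lowest library had 251. Snord104, of 70 bases, had 106, 37 and 94.

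Snord22 was flagged because it had expected counts above that limit in libraries where its TPM was listed at 0, with a lowest value of 31.9 in replicate 2.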

How the results depend on the processing

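No paired analysis was possible because the series has 1 group. The count of 46 members was 47 at TPM 0.5 or FPKM 1, 46 at TPM 2 and 43 with the Rnu3b copies counted once, but 723 by posterior mean TPM, 197 by kallisto-format TPM, 28 with at least 10 expected counts in every library and 1558 with no filter. Leaving out each library in turn gave 49 to 72, the highest without replicate 2. The median of log2(TPM + 1) over members was 6.92 ± 0.94 (SD, n = 3). It was 1.99 on log2(CPM + 1), 4.85 by kallisto-format TPM, 9.17 with TPM scaled to the nuclear protein-coding genes, 8.38 with at least 10 counts and 0 with no filter, and 6.53 to 7.44 leaving out a library. The share of TPM, 3.23% ± 0.869 (SD, n = 3), was 0.191% of expected counts, 0.342% of kallisto-format TPM, 0.154% of kallisto-format estimated counts and 4.66% of the kallisto-format TPM of nuclear protein-coding genes, and 2.82% to 3.68% leaving out a library. The class difference of -0.45 was 0.96 over all annotated genes of both classes, 1.80 with at least 10 counts, -1.18 for means and -1.26 for classes from the sequence, and -0.59 to -0.36 leaving out a library. Members called in replicate 2 were 5 with DESeq2 and 25 with no filter, and in replicate 3 they were 21 with no filter, against 0 in edgeR with the filter. The median log2 ratio was -1.40 for replicate 2 and 1.30 for replicate 3 by kallisto-format counts. With 1 library against 1, which allows no test, it ranged from -0.95 to 1.12 for replicate 1, from -1.97 to -1.12 for replicate 2 and from 0.95 to 1.97 for replicate 3. The cause of these shifts was not tested. The class definition, the copies counted once, the share of protein-coding TPM and the settings of the median ratio were chosen after seeing the data. Of 218 alternatives for single genes, 123 moved by less than 1 SD or SE and 95 by more. Depth limits the 18 members with fewer than 10 expected counts in some library, 13 of them with fewer than 3.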
